A study of Rattus norvegicus with 9 samples.

Results

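Immunity-related GTPases (IRG) and guanylate-binding proteins (GBP) are 2 related families of interferon-inducible GTPases. They were followed here through 10 genes, Irgm1, Irgm2, Igtp, Iigp1, Gbp2, Gbp3, Gbp5, Gbp6, Gbp7 and Gbp9, of the 23953 genes counted. The genes were chosen by family and by their measured values in these same libraries, with the results of all 3 comparisons known, so their levels and fold changes are given as a description. The members that passed a threshold in the fit over all genes are counted beside the share of all genes that did, and these counts are no test of the members. All 9 libraries came from neural stem cells (NSCs) of rat spinal cord kept in differentiation medium. The Con group had this medium alone. The Exo group also had exosomes of bone marrow mesenchymal stem cells (BMSCs), which the methods of the study describe as taken from BMSCs carrying an empty lentiviral vector. The pLV-Exo-Wnt5a group had exosomes of BMSCs made to overexpress Wnt5a with a lentiviral vector, so Wnt5a was overexpressed in the donor cells and not in the NSCs themselves. Each group had 3 libraries, and nothing in the labels says that they came from separate cultures, so the spread between them may be technical.

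Interferons bind receptors that activate Janus kinases and STAT proteins. Type I interferons act through a complex that holds IRF9 and binds the interferon-stimulated response element (ISRE), and interferon gamma acts through the gamma-activated site (GAS). IRG and GBP genes are classical targets of both routes. Their proteins are known mainly from defence against intracellular parasites and bacteria: effector IRG proteins such as Iigp1 and GBP proteins coat the vacuole that encloses the parasite, while the regulatory IRG proteins Irgm1, Irgm2 and Igtp (also called Irgm3) mark the cell's own membranes and keep the effectors inactive there. Irgm1 is also known for a role in autophagy. In nervous tissue these genes are best known as part of the response of astrocytes and microglia to interferon.

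The count table carries mouse gene symbols, mouse NCBI gene numbers and mouse pathway identifiers although the cells are described as rat, so rat promoters could be matched to the genes by symbol alone. The RefSeq table of rat promoters (build GRCr8, 250 bases before to 50 bases after each start) held 6 of the 10 symbols: Irgm2, Igtp, Gbp2, Gbp5, Gbp6 and Gbp7. Irgm1, Iigp1, Gbp3 and Gbp9 had no matching entry. The 130 bases before the start are shown for the 5 genes in which the ISRE letters were found, to show the sequence through which interferon is known to act on these families. Capitals mark the ISRE letters, GAAANNGAAA on either strand, and the GAS letters, TTCNNNGAA, which read the same on both strands.
Igtp: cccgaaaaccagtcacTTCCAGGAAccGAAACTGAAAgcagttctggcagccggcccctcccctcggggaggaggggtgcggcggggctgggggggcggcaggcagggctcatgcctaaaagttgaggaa
Irgm2: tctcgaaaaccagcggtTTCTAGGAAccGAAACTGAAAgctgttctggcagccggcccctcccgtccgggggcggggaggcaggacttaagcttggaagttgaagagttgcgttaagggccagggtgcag
Gbp2: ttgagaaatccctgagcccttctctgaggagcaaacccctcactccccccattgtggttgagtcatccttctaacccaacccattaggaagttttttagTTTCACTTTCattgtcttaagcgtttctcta
Gbp5: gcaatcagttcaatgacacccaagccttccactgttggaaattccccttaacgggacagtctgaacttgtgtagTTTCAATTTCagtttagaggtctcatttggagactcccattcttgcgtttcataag
Gbp7: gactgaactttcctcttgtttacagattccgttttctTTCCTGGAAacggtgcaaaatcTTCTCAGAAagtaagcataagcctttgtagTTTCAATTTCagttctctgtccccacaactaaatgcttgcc

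All 5 stretches lie on the plus strand of GRCr8, Igtp at chr10:42874917-42875046, Irgm2 at chr10:42889840-42889969, Gbp2 at chr2:234005597-234005726, Gbp5 at chr2:233910869-233910998 and Gbp7 at chr2:233948759-233948888. Igtp and Irgm2 are neighbouring protein-coding genes on rat chromosome 10, and both held GAAACTGAAA downstream of a GAS match, with the ISRE match beginning 103 and 102 bases before the start. In Gbp2 the match was TTTCACTTTC, beginning 31 bases before the start. Gbp5 and Gbp7, also neighbours, shared TTTCAATTTC, beginning 56 and 41 bases before the start, and Gbp7 had 2 GAS matches upstream of it. The Gbp6 promoter held neither set of letters. The ISRE letters were thus in 5 of the 6 promoters and in 3.92% of all 33469 rat promoters of the same length. The GAS letters were in 3 of the 6 and in 8.87% of all, and both were in 3 of the 6 and in 0.514% of all. No ISRE match overlapped a GAS match in these genes. A match of letters is a description of the sequence and not a binding site.

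The libraries held between 32765138 and 40427647 counts. Values are given as CPM, the count scaled to a fixed library size, after TMM normalization, which corrects for the composition of each library. A gene with no read in a library may still have been present at up to 3 counts, or 0.0727 to 0.0913 CPM, a limit from counting error alone. Con replicate 1 stood apart in composition, with a TMM factor of 0.965 against 0.996 to 1.02 in the other 8 libraries. All 9 libraries carry one batch date. Gene lengths were not used, so levels are compared between groups and not between genes. Fewer cells that express a gene and less RNA per cell cannot be told apart in bulk libraries.

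Irgm1 (NCBI gene number 15944), a regulatory IRG, was measured at 7.03, 7.27 and 7.67 CPM in Con replicates 1, 2 and 3, at 8.40, 7.42 and 6.26 CPM in Exo libraries, and at 12.5, 9.46 and 13.6 CPM in pLV-Exo-Wnt5a libraries. Every pLV-Exo-Wnt5a library was above every other library, while the Con and Exo libraries overlapped. The group means were 7.32 ± 0.322, 7.36 ± 1.07 and 11.8 ± 2.13 CPM (SD, n = 3 each). The log2FC was 0.70 (standard error 0.16) for pLV-Exo-Wnt5a against Exo, 0.69 (standard error 0.17) between pLV-Exo-Wnt5a and Con, and −0.00 (standard error 0.16) between Exo and Con. Irgm1 rested on at least 248 counts in each library, more than any of the other 9 genes.

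Irgm2 (NCBI gene number 54396), the second regulatory IRG, had an intermediate mean in Exo libraries. It was at 0.649, 1.03 and 1.25 CPM in Con libraries, at 1.86, 1.86 and 1.49 CPM in Exo libraries, and at 3.43, 1.64 and 3.32 CPM in pLV-Exo-Wnt5a libraries. All Exo and pLV-Exo-Wnt5a libraries lay above all Con libraries, and pLV-Exo-Wnt5a replicate 2 lay within the range of the Exo group. The means were 0.974 ± 0.303, 1.74 ± 0.213 and 2.80 ± 1.00 CPM (SD, n = 3 each). The log2FC was 0.83 (standard error 0.32) between Exo and Con, 1.52 (standard error 0.36) between pLV-Exo-Wnt5a and Con, and 0.70 (standard error 0.30) between pLV-Exo-Wnt5a and Exo.

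Igtp (NCBI gene number 16145), the third regulatory IRG, was at 1.97, 1.39 and 1.43 CPM in Con libraries and at 1.55, 1.19 and 1.24 CPM in Exo libraries. In pLV-Exo-Wnt5a libraries it was at 2.40, 2.05 and 3.83 CPM. The Con and Exo libraries overlapped, and all 3 pLV-Exo-Wnt5a libraries were above them. The log2FC was 1.07 (standard error 0.29) between pLV-Exo-Wnt5a and Exo, 0.78 (standard error 0.30) between pLV-Exo-Wnt5a and Con, and −0.28 (standard error 0.29) between Exo and Con.

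Iigp1 (NCBI gene number 60440), the effector IRG, gave 2, 0 and 7 counts in Con libraries, 0, 1 and 1 in Exo libraries, and 1, 0 and 1 in pLV-Exo-Wnt5a libraries. It passed the filter on low counts in no comparison, and its change was not measurable from these counts.

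The proportions of the regulatory IRG genes differed between libraries. Irgm2 counts amounted to 9.23%, 14.1% and 16.3% of Irgm1 counts in the Con libraries, to 22.2%, 25.0% and 23.8% in the Exo libraries, and to 27.5%, 17.3% and 24.4% in the pLV-Exo-Wnt5a libraries. All 6 libraries with exosomes were above all 3 Con libraries, and the ranges of the Exo and pLV-Exo-Wnt5a groups overlapped. The closest libraries, Con replicate 3 (16.3%) and pLV-Exo-Wnt5a replicate 2 (17.3%), rested on 41 and 60 Irgm2 counts. How many other gene pairs separated the groups in this way was not counted. Igtp counts amounted to between 18.7% and 28.0% of Irgm1 counts in Con libraries, between 16.0% and 19.8% in Exo libraries, and between 19.2% and 28.2% in the pLV-Exo-Wnt5a group, with overlap between all groups. These percentages are read counts within one library, so they do not depend on the scaling between libraries. They do depend on how reads shared by similar family members were divided. The submitters' notes name RSEM, which assigns such reads by estimation, and its settings are not given in the sources used here.

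**Figure D1:**
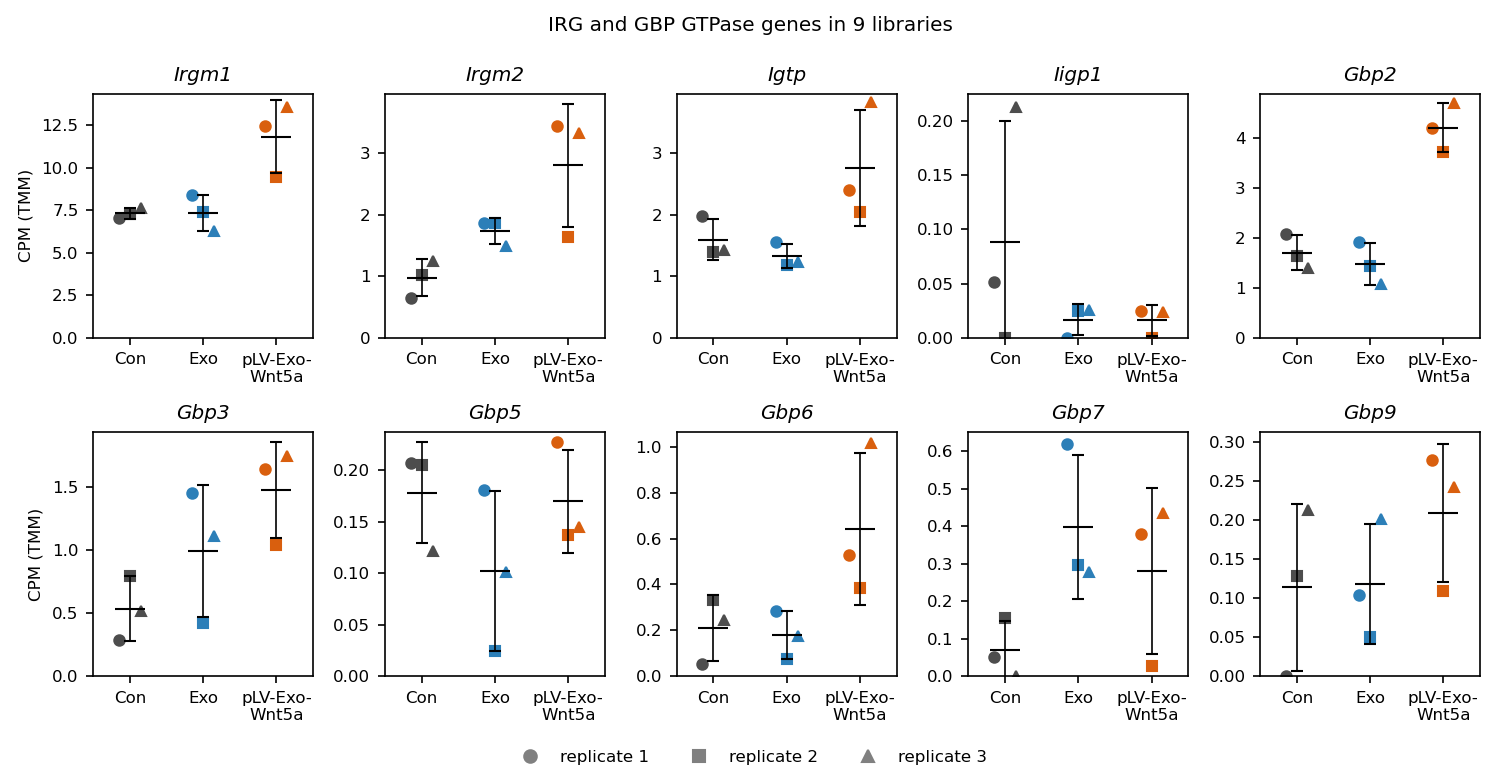
TMM-normalised CPM (linear axis from 0, a separate scale for each gene) of the 10 IRG and GBP genes over Con, Exo and pLV-Exo-Wnt5a libraries. Points are single libraries with the symbol giving the replicate, and the black bar and whiskers are the group mean and SD (n = 3). The 3 pLV-Exo-Wnt5a libraries lie above all others for Irgm1, Igtp, Gbp2 and Gbp6, whereas Irgm2 and Gbp3 have intermediate Exo means.

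Gbp2 (NCBI gene number 14469), a GBP that attaches to membranes by a lipid anchor, was at 2.08, 1.64 and 1.40 CPM in Con libraries and at 1.91, 1.44 and 1.09 CPM in Exo libraries. In pLV-Exo-Wnt5a libraries it was at 4.19, 3.72 and 4.70 CPM. The lowest pLV-Exo-Wnt5a library was above the highest of the other 6 libraries, and Con and Exo overlapped. The means were 1.71 ± 0.342, 1.48 ± 0.415 and 4.20 ± 0.490 CPM (SD, n = 3 each). The log2FC was 1.52 (standard error 0.25) between pLV-Exo-Wnt5a and Exo, 1.29 (standard error 0.24) between pLV-Exo-Wnt5a and Con, and −0.22 (standard error 0.31) between Exo and Con.

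Gbp3 (NCBI gene number 55932) was at 0.285, 0.796 and 0.517 CPM in Con libraries, at 1.45, 0.421 and 1.11 CPM in Exo libraries, and at 1.64, 1.04 and 1.74 CPM in pLV-Exo-Wnt5a libraries. The pLV-Exo-Wnt5a libraries were all above the Con libraries, and the Exo group overlapped both. The log2FC was 1.46 (standard error 0.43) between pLV-Exo-Wnt5a and Con, 0.88 (standard error 0.53) between Exo and Con, and 0.59 (standard error 0.43) between pLV-Exo-Wnt5a and Exo. Single libraries weighed on these values: against Exo the log2FC was 0.22 without Exo replicate 2 and 0.95 without Exo replicate 1, and between Exo and Con it was 0.52 without Exo replicate 1. Gbp3 gave between 11 and 72 counts per library.

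Gbp6 (NCBI gene number 100702) gave 2, 13 and 8 counts in Con libraries, 11, 3 and 7 in Exo libraries, and 21, 14 and 42 in pLV-Exo-Wnt5a libraries. Each pLV-Exo-Wnt5a library was above all others also in CPM, where this group lay between 0.383 and 1.02 and the other 6 libraries between 0.0519 and 0.334. The log2FC was 1.86 (standard error 0.60) against Exo and 1.61 (standard error 0.64) against Con. Gbp6 passed the filter on low counts in both comparisons through the pLV-Exo-Wnt5a libraries alone, so a difference in this direction was built into its being tested.

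Gbp7 (NCBI gene number 229900) was the member with its highest mean in the Exo group. It gave 2, 6 and 0 counts in Con libraries, 24, 12 and 11 in Exo libraries, and 15, 1 and 18 in pLV-Exo-Wnt5a libraries. The Exo libraries were all above the Con libraries, and the pLV-Exo-Wnt5a group, spread from 0.0273 to 0.436 CPM, overlapped both. The log2FC was 2.41 (standard error 0.81) between Exo and Con, where Gbp7 passed the filter only through the Exo libraries, and −0.46 (standard error 0.71) between pLV-Exo-Wnt5a and Exo. The estimate against Con was 3.68 without Con replicate 2. The difference between pLV-Exo-Wnt5a and Exo rested on single libraries, at 0.05 on the log2 scale when pLV-Exo-Wnt5a replicate 2 was left out and at −0.01 when Exo replicate 1 was.

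Gbp5 (NCBI gene number 229898), a GBP known for its link to inflammasome activity, gave between 1 and 9 counts in all 9 libraries, and Gbp9 (NCBI gene number 236573) gave between 0 and 11. Neither passed the filter in any comparison. Their group means were 0.178 ± 0.0490, 0.102 ± 0.0781 and 0.170 ± 0.0499 CPM for Gbp5 and 0.114 ± 0.107, 0.118 ± 0.0774 and 0.210 ± 0.0887 CPM for Gbp9 over Con, Exo and pLV-Exo-Wnt5a libraries (SD, n = 3 each), and the libraries of the 3 groups overlapped for both genes.

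**Figure D2:**
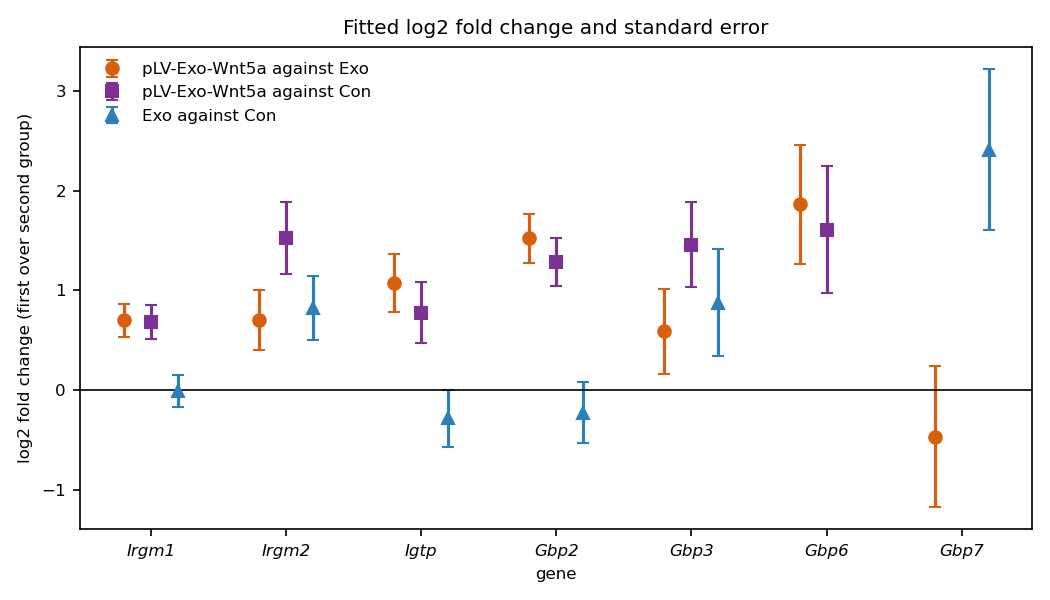
Fitted log2FC (vertical axis, first group over second) of the 7 genes that passed the filter on low counts in at least 1 comparison. Points are the estimates of the 3 comparisons, whiskers are standard errors, and a missing point means that the gene was filtered out there. Against Con, the pLV-Exo-Wnt5a estimates run from 0.69 (Irgm1) to 1.61 (Gbp6), and the Exo estimates run from −0.28 (Igtp) to 2.41 (Gbp7).

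Between pLV-Exo-Wnt5a and Exo, 7 of the 10 genes could be fitted, with a median log2FC of 0.70 beside 0.00 over all 15132 genes. The median was also 0.70 without Gbp6 and Gbp7, which each passed the filter through 1 group alone. Irgm1, Igtp, Gbp2 and Gbp6 were higher with no overlap between the groups, where 7.5% of all genes were higher without overlap. Under an unadjusted p under 0.05 with a log2FC above 0.58, 5 members were called (these 4 and Irgm2) and 1.51% of all genes. When Q, the p-value adjusted over all genes, had to be under 0.05 and the change at least 2-fold in either direction, edgeR called 1 member, Gbp2, and 0.159% of all genes. DESeq2, and edgeR without the filter on low counts, called Gbp2 and Igtp. Since these contrasts served in the choice of the genes, nothing is read from the counts. Gbp2 was no longer called at that threshold without pLV-Exo-Wnt5a replicate 1 or 3 or without Exo replicate 2 or 3, and the 5 members called at the unadjusted p became 3 (Irgm1, Igtp and Gbp2) without pLV-Exo-Wnt5a replicate 3. The call of Irgm2 was also lost without pLV-Exo-Wnt5a replicate 1, without any 1 of the 3 Exo replicates, in the fit on all 9 libraries and with the replicate block.

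Between pLV-Exo-Wnt5a and Con, 6 genes could be fitted, with a median log2FC of 1.37 beside 0.00 over all 15089 genes, and 1.29 without Gbp6. All 6 (Irgm1, Irgm2, Igtp, Gbp2, Gbp3 and Gbp6) were higher without overlap and called at the unadjusted p, against 7.67% and 1.46% of all genes. None was called at Q by edgeR with the filter, where 0.0663% of all genes were. DESeq2, and edgeR without the filter on low counts, called Gbp2 and Irgm2, and edgeR with the replicate block called Gbp2. Without pLV-Exo-Wnt5a replicate 3 the 6 members called at the unadjusted p became 4, with Igtp and Gbp6 lost, and the log2FC of Igtp was 0.47. The call of Igtp was also lost without Con replicate 2 or 3, and Gbp7 was called without pLV-Exo-Wnt5a replicate 2 or without Con replicate 2. Without Con replicate 1, the library with the lowest TMM factor, the 6 estimates lay between 0.67 (Irgm1) and 1.46 (Gbp2), and 5 were called, with Gbp6 lost.

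Between Exo and Con, 6 genes could be fitted, with a median log2FC of 0.41 beside 0.00 over all 15070 genes. Without Gbp7, which passed the filter through the Exo libraries alone, the median of the other 5 was −0.00 (calculated after the data were seen, as are the corresponding medians of the other comparisons). Irgm2 and Gbp7 were higher without overlap and called at the unadjusted p, against 10.9% and 3.56% of all genes. None was called at Q by edgeR or DESeq2, where edgeR called 0.00664% of all genes. Both calls were lost without Exo replicate 1, and without Exo replicate 2 that of Irgm2 was lost and Gbp3 was called. Without Con replicate 1 or Con replicate 2 only Gbp7 was called, and the log2FC of Irgm2 was 0.60 without Con replicate 1. The 3 comparisons share libraries, so their values for one gene are not independent of each other.

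The summed level of the 4 IRG genes was between 9.68 and 10.6 CPM in Con libraries, between 9.02 and 11.8 CPM in Exo libraries, and between 13.2 and 20.8 CPM in pLV-Exo-Wnt5a libraries. The sum of the 6 GBP genes was at most 3.26 CPM in Con libraries, between 2.30 and 4.55 CPM in Exo libraries and between 5.41 and 8.28 CPM in pLV-Exo-Wnt5a libraries. The pLV-Exo-Wnt5a libraries were above all others in both sums, and Irgm1 gave most of the IRG counts.

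The order of the libraries within a group was partly shared by the members among Exo and among pLV-Exo-Wnt5a libraries, and not among Con libraries. Exo replicate 1 was the highest of its group for all 7 members that passed the filter on the 3 groups, where it was highest for 41.3% of all 15458 genes. Similarly, pLV-Exo-Wnt5a replicate 2 was the lowest of its group for all 7, where it was lowest for 36.8% of all genes, and pLV-Exo-Wnt5a replicate 3 was the highest for 6, where it was highest for 37.2% of all genes. In the Con group, replicate 1 was the lowest for 4 members and the highest for 2, replicate 2 the lowest for 1 and the highest for 3, and replicate 3 the lowest for 2 and the highest for 2. The mean of the members' centred log2 CPM was −0.80, −0.22 and −0.62 in the Con libraries, 0.31, −0.40 and −0.23 in the Exo libraries, and 0.81, 0.05 and 1.10 in the pLV-Exo-Wnt5a libraries. Over the 9 libraries, the 21 pairs of members had Pearson's r between 0.154 and 0.923 (median 0.660). These points share the 3 groups and the library depth, and the r values are a description. Against the mean of the other members, r was highest for Irgm1 (0.870), Irgm2 (0.850) and Gbp3 (0.848) and lowest for Gbp7 (0.425). After centring within groups the order changed, with Irgm1 (0.776) and Gbp7 (0.727) highest and Gbp2 (0.353) lowest.

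Of the genes outside the family, the 5 with the highest Pearson's r to the members' mean, among 15451 genes over the 9 libraries, were Cachd1 (0.957), Mamdc2 (0.949), Mfhas1 (0.940), Trim25 (0.931) and Adamtsl1 (0.928). Trim25, a ubiquitin ligase of the RIG-I pathway, had group means of 15.4, 17.4 and 22.4 CPM over Con, Exo and pLV-Exo-Wnt5a libraries. Cachd1 differed less between groups, with means of 47.7, 49.7 and 55.1 CPM. After centring within groups the 5 genes had r between 0.872 and 0.972, and with 9 points and 15451 genes ranked, high values are selected by the ranking itself.

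Cells of the immune system also express these genes, so markers of other cell types were measured in the same libraries. The summed level of 12 microglia and macrophage markers was 18.1, 16.5 and 19.1 CPM in the Con libraries, 9.20, 9.73 and 10.4 CPM in the Exo libraries, and 17.6, 19.9 and 14.2 CPM in the pLV-Exo-Wnt5a libraries. The sum was thus lower in the Exo group than in either of the others, and the Con and pLV-Exo-Wnt5a libraries overlapped. Of the 9 markers that passed the filter, Csf1r, C1qa, C1qb and Itgam were called at the unadjusted p as higher in pLV-Exo-Wnt5a than in Exo, and none at Q. Between Exo and Con, 4 were called lower at the unadjusted p. Cx3cr1 was called lower in pLV-Exo-Wnt5a than in Con, with a log2FC of −1.40 (standard error 0.50). Against Con, the 6 members fitted were higher without overlap, as were 7.67% of all genes, and they were chosen with this contrast known. Within the pLV-Exo-Wnt5a group, replicate 2 was highest in the marker sum and lowest for the members. The leukocyte gene Ptprc gave at most 6 counts in a library, and the microglial genes P2ry12 and Tmem119 at most 12 and 14. None of 6 T and NK cell genes was among the 23953 genes. The part of microglia in the members' values was not tested in any comparison.

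Markers of neural cells were at high levels, with 6 neuronal genes summing to between 1984 and 2575 CPM. The sum of 6 astrocyte genes, of which Gfap gave most, was 4610, 3788 and 3862 CPM in Con libraries, 3757, 3672 and 3731 CPM in Exo libraries, and 5446, 5400 and 5669 CPM in pLV-Exo-Wnt5a libraries. As for the family sums, all 3 pLV-Exo-Wnt5a libraries were above the others. The genes of these lists did not move one way. Between pLV-Exo-Wnt5a and Exo, 2 of the 6 astrocyte genes had a log2FC above 0 and 4 below 0, with a median of −0.16. Gfap, the intermediate filament of astrocytes, was the 1 astrocyte gene at Q under 0.05. It was at 2539 ± 446 CPM in Con libraries, 2234 ± 38.0 CPM in Exo libraries and 4026 ± 55.7 CPM in pLV-Exo-Wnt5a libraries (SD, n = 3 each), and its log2FC between pLV-Exo-Wnt5a and Exo was 0.86 (standard error 0.05, edgeR Q = 3.4e-05). The astrocyte glutamate transporters Slc1a3 and Slc1a2 had log2FC of −0.21 (standard error 0.06) and −0.42 (standard error 0.12). Of 6 neuronal genes, Dcx, which marks young neurons, was lower (−0.60, standard error 0.08, edgeR Q = 0.0113), and of 6 neural stem cell genes, Vim, an intermediate filament of immature glia, was higher (0.62, standard error 0.11, edgeR Q = 0.0389). The stem cell markers summed to 2732, 2465 and 2428 CPM in Con libraries, to 2503, 2005 and 2117 CPM in Exo libraries, and to 3014, 2465 and 3262 CPM in pLV-Exo-Wnt5a libraries. As for the members, Exo replicate 1 and pLV-Exo-Wnt5a replicate 3 were the highest of their groups in the astrocyte and stem cell sums. In both, pLV-Exo-Wnt5a replicate 2 was the lowest of its group. Exo replicate 1 and pLV-Exo-Wnt5a replicate 3 were also highest in the sums of 7 oligodendrocyte lineage and 5 endothelial genes. In the sum of 6 mesenchymal genes Exo replicate 1 was highest and pLV-Exo-Wnt5a replicate 3 lowest. The neuronal sum was lowest in Exo replicate 1 (2187 CPM) and pLV-Exo-Wnt5a replicate 3 (1984 CPM) and highest in pLV-Exo-Wnt5a replicate 2 (2575 CPM). In the Con group, replicate 1 was the highest in the astrocyte and stem cell sums and the lowest in the members' mean. The part of these cell types in the members' values was not tested.

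**Figure D3:**
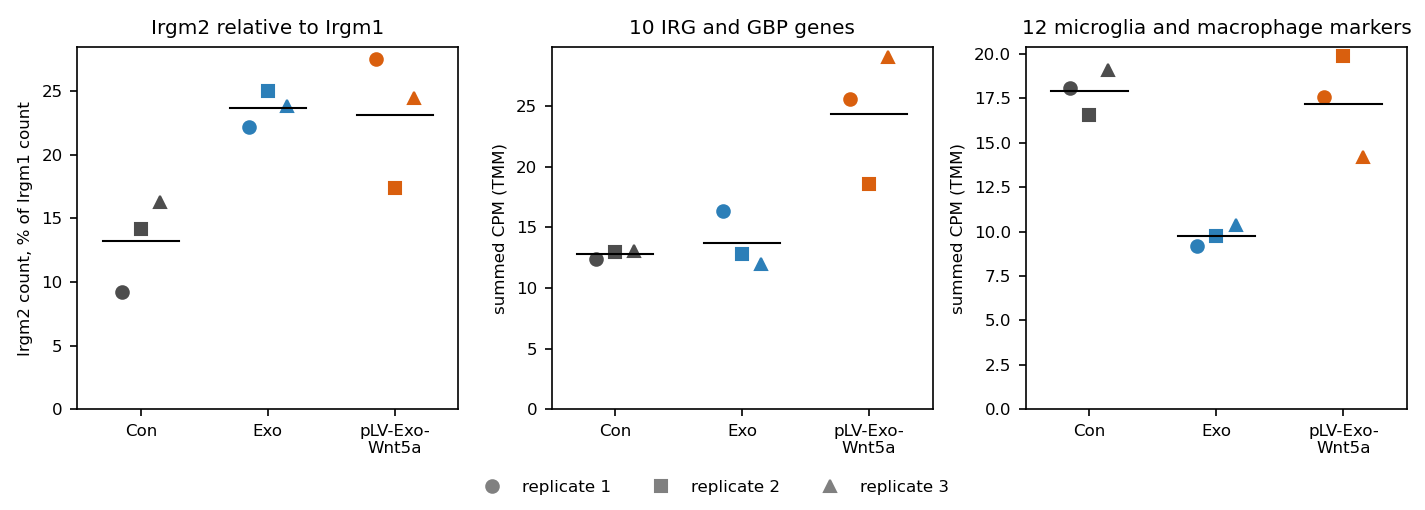
Left, Irgm2 counts as a percentage of Irgm1 counts; middle, summed TMM-normalised CPM of the 10 IRG and GBP genes; right, summed TMM-normalised CPM of 12 microglia and macrophage markers. Points are single libraries (symbol, replicate), black lines are group means, and axes start at 0. The percentage is lowest in the 3 Con libraries, the family sum is highest in the 3 pLV-Exo-Wnt5a libraries, and the marker sum is lowest in the 3 Exo libraries.

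The rest of the pathway was followed in 151 genes of 7 lists, from ligands to targets and partners, of which 120 were among the genes counted. Between pLV-Exo-Wnt5a and Exo, 93 could be tested, and 9 had Q under 0.05 in edgeR's test, all higher (0.344% of all genes were higher at this threshold). The 9 became 5 when either pLV-Exo-Wnt5a replicate 1 or Exo replicate 2 was left out, and 6 when pLV-Exo-Wnt5a replicate 3 was. At the unadjusted p with a log2FC beyond 0.58, 20 were higher and 0 lower, and the median log2FC of the 93 was 0.20. Against Con, 2 of 93 were higher at Q (0.0795% of all genes) and 17 at the unadjusted p, with a median of 0.14. Those 2 became 0 without pLV-Exo-Wnt5a replicate 1, 2 or 3 or without Con replicate 2. Between Exo and Con, none of 91 passed Q by edgeR or DESeq2. At the unadjusted p none was higher and 5 were lower, where 0.909% of all genes were lower, with a median of −0.08. The 5 became 2 without Exo replicate 3 and 3 without Con replicate 1. The lists were written with earlier results of these data known, so these counts are not independent evidence of a direction.

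At the level of ligands, 1 of 14 interferon genes was among the genes counted, the type I interferon Ifne with 1 count in all. Of 12 genes for interferon receptors, Janus kinases and STAT factors, 11 could be tested, and none passed either threshold in any of the 3 comparisons. Ifngr1, a chain of the interferon gamma receptor, was at 13.6 ± 0.943, 15.0 ± 0.694 and 14.8 ± 2.14 CPM over Con, Exo and pLV-Exo-Wnt5a libraries (SD, n = 3 each). Irf9 and Stat2 had no overlap between pLV-Exo-Wnt5a and the other groups and log2FC against Exo of 0.32 (standard error 0.09) and 0.20 (standard error 0.07). Jak1, one of the Janus kinases, was lower without overlap against Exo, with a log2FC of −0.12 (standard error 0.06). Of all genes, 7.5% were higher and 8.9% lower without overlap in that comparison. The median log2FC of the list was 0.06, beside 0.70 for the IRG and GBP members, which were chosen with this contrast known. The difference between them was not tested.

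Among 15 tested IRF factors and regulators, Nlrc5 passed Q between pLV-Exo-Wnt5a and Exo. Nlrc5, the transactivator of MHC class I genes, was at 3.98 ± 0.733, 2.54 ± 0.298 and 6.77 ± 0.296 CPM over Con, Exo and pLV-Exo-Wnt5a libraries (SD, n = 3 each), and its log2FC against Exo was 1.43 (standard error 0.17, edgeR Q = 0.0040). At the unadjusted p, Irf5, Socs3 and Usp18 were also higher. Usp18, an inhibitor of type I interferon signalling, had a log2FC of 1.80 (standard error 0.44, edgeR Q = 0.116) against Exo. Irf1, the factor that many GBP genes depend on, was at 0.28 (standard error 0.15) and did not pass.

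Of 24 tested genes of the type I interferon response, 3 passed Q between pLV-Exo-Wnt5a and Exo, 7 passed the unadjusted p, and the median log2FC was 0.66. The 3 were Oasl2, a relative of the antiviral oligoadenylate synthetases, Ifi27 and Lgals3bp, with log2FC of 1.43 (standard error 0.16), 0.95 (standard error 0.15) and 1.03 (standard error 0.15). Against Con none passed Q by edgeR and 8 passed the unadjusted p, with a median of 0.64, and between Exo and Con the median was −0.01. Whether the members changed more than this list was not tested.

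Of 21 tested genes of antigen presentation and its chemokines, 5 passed Q between pLV-Exo-Wnt5a and Exo. They were the class I genes H2-K1, H2-D1 and H2-Q4, the class I light chain B2m, and the immunoproteasome subunit Psmb8, with log2FC of 1.11 (standard error 0.11), 0.94 (standard error 0.07), 1.81 (standard error 0.17), 0.80 (standard error 0.14) and 1.35 (standard error 0.24). Against Con, H2-D1 and H2-Q4 passed, with log2FC of 0.72 (standard error 0.10) and 1.44 (standard error 0.19). The median log2FC of the list was 0.43 between pLV-Exo-Wnt5a and Exo and 0.14 between pLV-Exo-Wnt5a and Con. Between Exo and Con it was −0.21, with 2 genes higher and 19 lower. The class I genes are near-identical copies of each other, and their counts are uncertain because reads could be divided among them.

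Among 21 tested partners of the GTPases, such as ubiquitin ligases, autophagy genes and inflammasome genes, none passed Q by edgeR between pLV-Exo-Wnt5a and Exo. Rnf213, a ubiquitin ligase, had the smallest p of the list, with a log2FC of 0.56 (standard error 0.12, edgeR Q = 0.0824). Casp8, an initiator caspase of cell death, was the 1 gene called at the unadjusted p, with a log2FC of 2.17 (standard error 0.60), and it rested on at most 66 counts in a library. Casp8 did not pass the filter between Exo and Con, so it was tested through the pLV-Exo-Wnt5a libraries alone, where it is high. The median of this list was 0.01. Of 21 further IRG and GBP symbols, 8 were among the genes counted, and 7 of them gave at most 8 counts in any library. The eighth was Irgq, an IRG-like gene without known induction by interferon, at a mean of between 270.5 and 289 CPM in the 3 groups, and its log2FC against Exo was 0.11 (standard error 0.07, edgeR Q = 0.591).

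**Figure D4:**
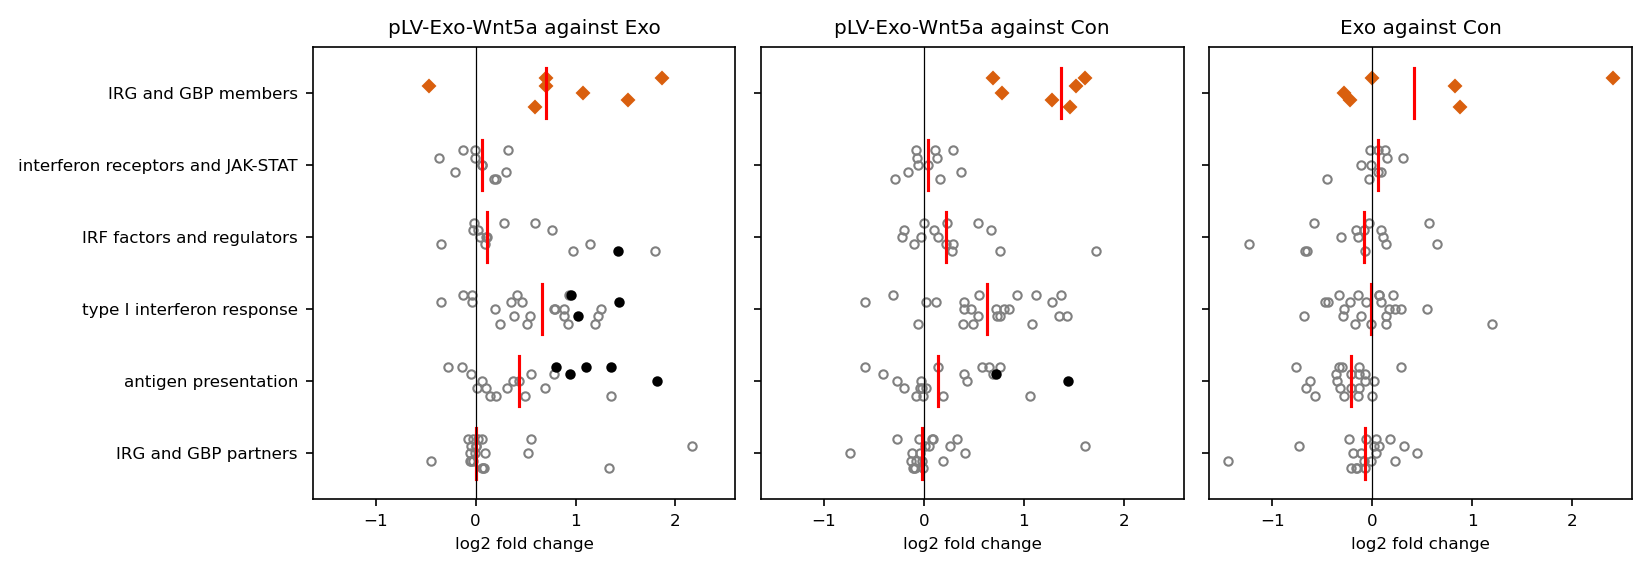
Log2FC (horizontal axis) of single genes in the 3 comparisons, with one row for the IRG and GBP members (diamonds) and one for each list of related genes (circles, filled where Q was under 0.05). Red bars are medians of the genes tested. Between pLV-Exo-Wnt5a and Exo the medians were 0.70 for the members, 0.06 for receptors and JAK-STAT, 0.11 for IRF factors and regulators, 0.66 for the type I response, 0.43 for antigen presentation and 0.01 for partners.

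In the annotation that came with the counts, all 10 members carried GTPase activity, GTP binding and a defense response. Of all genes, 2.51%, 1.47% and 1.99% carried these terms. A response to interferon gamma was annotated for 9 members and 0.981% of the 23953 genes, and a response to interferon beta for 8 members and 0.488% of the genes. The NOD-like receptor signalling pathway listed 6 members and 0.635% of the genes, and toxoplasmosis listed 3 members and 0.430% of the genes. The members were chosen as interferon-inducible GTPases, so these terms follow from the choice.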

How the data were processed

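The data were 9 RNA-seq libraries of NSCs, 3 for each of Con, Exo and pLV-Exo-Wnt5a. The deposited table holds raw gene counts as whole numbers. The study's methods name HISAT2 for alignment, whereas the submitters' processing notes name Bowtie2, RSEM 1.3.1 and DESeq2 1.4.5; genome build and annotation are not given in the sources used here. Groups were taken from the sample labels and columns were matched by library name.

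From the counts, genes kept by filterByExpr in the 6 libraries compared were normalized by TMM and tested with edgeR 4.0.16 (quasi-likelihood, Benjamini-Hochberg Q over all genes) in R 4.3.3. A gene was called at Q under 0.05 if its fold change also exceeded 2 or fell under 0.5, or, in a second rule, at an unadjusted p under 0.05 with a log2FC beyond 0.58. CPM used TMM over 9 libraries, and centred log2 CPM a prior count of 2. The standard error came from the test statistic. The members and gene lists were chosen with earlier results of these data known. Genes of the lists were named where Q was under 0.05 in any comparison, or else from the 4 smallest p between pLV-Exo-Wnt5a and Exo, besides Irf1, Ifngr1 and the 5 genes most like the members; results for some single genes are left out here. Genes outside this rule (Irf5, Socs3, Usp18, Slc1a3, Slc1a2 and the cell type markers with low counts) were named after their values were seen. The steps were tested on simulated data. Alternatives were RLE, DESeq2 1.42.0, other filters, a fit on all 9 libraries, the replicate number as a block, and leaving out each library.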

Additional observations from a re-analysis of the deposited data

How the results depend on the processing

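No library, normalization or filter changed the sign of a member's log2FC in the alternatives tried, except for Irgm1 between Exo and Con, which kept its sign in 6 of 12, and Gbp7 between pLV-Exo-Wnt5a and Exo, in 10 of 11. Counts over all genes at Q moved more. Between pLV-Exo-Wnt5a and Exo the 24 genes became 74 with DESeq2, 69 without a filter and 11 to 27 when 1 library was left out. Between pLV-Exo-Wnt5a and Con the 10 genes became 27 with DESeq2, 33 without a filter and 1 to 12 with 1 library left out. Between Exo and Con the 1 gene became 28 with DESeq2, 50 without a filter, 2 in the fit on all 9 libraries and 0 to 138 with 1 library left out. The 138 came without Con replicate 3, the library with the fewest counts, and leaving out any other library gave 0 to 2. At the unadjusted p, the 326 genes between pLV-Exo-Wnt5a and Con became 592 without a filter and 283 to 662 with 1 library left out. The 674 between Exo and Con became 1032 and 354 to 1428. The 662 and the 1428 also came without Con replicate 3. Of the related interferon genes, 2 to 6 were called between Exo and Con with 1 library left out, and the 9 and 2 of them at Q under 0.05 for pLV-Exo-Wnt5a against Exo and against Con became 18 and 8 with DESeq2, 17 and 8 without a filter, 8 and 4 in the fit on all 9 libraries and 11 and 7 with the replicate block. The cause of these differences was not tested.

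Libraries with one replicate number did not deviate together over all genes (r between −0.20 and 0.06 over 9 pairs). This check cannot exclude a pairing that acts on some genes only. With the replicate block, 28, 20 and 0 genes passed Q in the 3 comparisons, and 20, 19 and 5 related genes passed the unadjusted p. Iigp1, Gbp5 and Gbp9 had too few counts to be fitted, and Gbp6 and Gbp7 rested on few counts. Whether these low counts came from depth, from low expression or from the mouse annotation of the counts was not tested.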
